A study of Mus musculus with 30 samples.

Results

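Embryoid bodies (EBs), the aggregates that mouse embryonic stem (ES) cells form in suspension, were compared at day 4 between 2 lines that both carry wild-type p53. The members are 4 libraries of the 14 RNA-seq libraries and 30 samples of the series, chosen by label alone. Of these, 2 came from E14Tg2a.IV, called E14 here, a wild-type line of the 129/Ola background, and 2 from a line labelled Trp53+/+, wild type, of the C57BL/6J background. As ES cells, E14 had been kept on gelatin with fetal bovine serum and LIF. The Trp53+/+ line had been kept without serum in N2B27 medium with LIF and the "2i" pair of inhibitors, PD0325901 against MEK and CHIR99021 against GSK3. Both formed EBs by the supplier's procedure, and the labels give these RNA samples neither Activin nor the receptor inhibitor SB431542. In the study the Trp53+/+ line is the control for a Trp53-/- line, also C57BL/6J and also kept in 2i, in which p63 and p73 are knocked down by short hairpin RNAs, called p53 family loss here. E14 served for a time course of days 0 to 4. The values of those libraries are given only as levels. The question put here is how far the control of the genotype experiment matches, at the same day, the line of the time course. Line, background, medium before differentiation and deposited table all change together between the groups and cannot be told apart. The labels give no sex, passage or clone for either line, and name no separate cultures for the replicates of a line. The p-values then rest on a spread between libraries that may be technical.

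EBs repeat the first steps of gastrulation. Cells leave naive pluripotency, the state that LIF and 2i hold, pass through a primed epiblast state, and in response to Wnt, Nodal and BMP signals switch on primitive streak genes such as T and Eomes. Cells of the streak then become mesoderm or endoderm. Strong Wnt and BMP signals favour posterior and extraembryonic mesoderm, which gives rise to blood, vessels and heart, while strong Nodal signals favour anterior streak and endoderm. Cells that escape these signals tend to become neural. p53, encoded by Trp53, is a transcription factor best known for its response to DNA damage, and p63 and p73 are its relatives.

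The promoters of 3 genes are shown from the ends of the comparison, Hprt because E14Tg2a is known as a line deficient in it, and Msgn1 and Cdx2 because they are mesoderm genes known to respond to Wnt. The sequences are RefSeq's for GRCm38.p6, from 250 bases before to 50 bases after the start of the gene, 5′ to 3′ on the strand of the gene. All 3 symbols were found in the promoter table. Capitals mark CTTTGA or its reverse complement TCAAAG, the core that TCF and LEF, the DNA-binding partners of β-catenin, recognise. The motif was searched on both strands.
Hprt, chrX:52987828-52988127, plus strand: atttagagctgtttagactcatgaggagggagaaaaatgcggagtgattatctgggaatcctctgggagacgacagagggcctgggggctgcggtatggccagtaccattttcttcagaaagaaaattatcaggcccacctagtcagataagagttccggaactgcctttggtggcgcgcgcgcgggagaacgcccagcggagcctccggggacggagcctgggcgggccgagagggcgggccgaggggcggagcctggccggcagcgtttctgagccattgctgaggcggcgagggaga
Msgn1, chr12:11208899-11209198, minus strand: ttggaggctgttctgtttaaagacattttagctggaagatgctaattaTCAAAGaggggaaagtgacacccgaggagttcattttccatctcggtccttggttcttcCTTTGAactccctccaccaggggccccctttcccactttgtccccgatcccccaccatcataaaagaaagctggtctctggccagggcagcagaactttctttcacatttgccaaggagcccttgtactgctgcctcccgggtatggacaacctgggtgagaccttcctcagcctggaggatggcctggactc
Cdx2, chr5:147307200-147307499, minus strand: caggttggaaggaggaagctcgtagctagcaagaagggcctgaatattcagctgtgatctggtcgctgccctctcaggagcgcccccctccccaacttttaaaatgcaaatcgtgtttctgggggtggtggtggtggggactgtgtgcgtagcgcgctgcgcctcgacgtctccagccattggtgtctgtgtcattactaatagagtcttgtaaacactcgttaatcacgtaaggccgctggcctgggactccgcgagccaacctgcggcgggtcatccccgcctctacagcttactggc
The Msgn1 window held the motif 2 times, 1 on each strand, and the other 2 windows did not hold it. Of 32851 promoter windows of this length, 16% held it at least once, so a match describes the letters and not a site in use. The Hprt and Cdx2 windows held 22 and 18 CpG pairs and the Msgn1 window 4, against a median of 7 over all windows.

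The E14 libraries held 35214736 and 27476591 reads and the Trp53+/+ libraries 27756405 and 19104692. Values are CPM, reads scaled so that each library's own total is the same, since the 2 tables were scaled separately. Replicates correlated across genes, which are not independent of each other, at a Spearman's rho of 0.992 in E14 and 0.985 in Trp53+/+, and the SD between replicates on the log2(CPM + 0.5) scale was 0.199 and 0.326. Rn45s, the ribosomal RNA precursor, stood at 2392 and 2932 CPM in E14 and at 6323 and 43015 CPM in Trp53+/+, so that it took 4.30% of the reads of Trp53+/+ replicate 2. Its part in other differences was not tested, except by leaving it out of the totals. The label of EBs was checked against markers. T, Eomes and Mixl1 were found at 173 CPM or more in all 4 libraries. The visceral endoderm markers Afp, Ttr and Apoa1 were at no more than 1.15 CPM. Other genes of the visceral and parietal endoderm list were expressed, such as Dab2 (19.3 and 19.9 CPM in E14, 37.5 and 26.5 CPM in Trp53+/+). That list summed to 1245 and 1342 CPM in E14 and to 1161 and 945 CPM in Trp53+/+. Among 13 markers of feeder fibroblasts 9 were tested, 1 higher (Dcn) and 1 lower (Fbln2) in Trp53+/+, with Col1a1 at 13.1 and 55 CPM in E14 and 19.5 and 11.6 CPM in Trp53+/+. Over all genes tested 1.43% were called higher and 2.46% lower. The feeder list had a median log2 difference of -0.82, against -0.10 for all genes. It summed to 4468 and 4153 CPM in E14 and to 2284 and 990 CPM in Trp53+/+. Of these sums Fn1 made up 4137, 3673, 2086 and 747 CPM. Dcn reached 1 CPM in the Trp53+/+ libraries alone, so it could be tested only through them. Of 15 trophoblast genes 10 were tested and only Cdx2 was called, Elf5 stayed under 0.4 CPM in every library, and Tpbpa and Prl3d1 had no read. Others of the list were expressed, such as Gata3 (14.0 and 12.7 CPM in E14, 7.06 and 3.98 CPM in Trp53+/+). The trophoblast list summed to 1220 and 1503 CPM in E14 and to 1174 and 1116 CPM in Trp53+/+.

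Genes were called by limma on log2(CPM + 0.5) at a Benjamini-Hochberg adjusted p under 0.05. Of 13443 genes tested, 523 were called (3.89%), 192 higher in Trp53+/+ (1.43%) and 331 lower (2.46%). Of these, 151 were higher by over 2-fold (1.12%) and 298 lower by over 2-fold (2.22%). At an unadjusted p under 0.05 there were 2896 genes. With TMM scaling the calls were 297 higher and 343 lower, so higher genes made up 46.4% of the calls in place of 36.7%. The median log2 difference of all genes, Trp53+/+ minus E14, was -0.10, and 38.8% of genes were positive. For 54.9% of genes the libraries of the 2 lines did not overlap. Of the 192 higher genes, 99 lay above all 10 E14 libraries of days 0 to 4, which held for 4.93% of all genes tested. Of the 331 lower genes, 65 lay below all 10, against 5.62% of all genes. The 10 include the E14 libraries of day 4 that the calls used. Both counts are therefore raised by the calls themselves, and nothing is read from the contrast with all genes. A call stood in each of the 4 fits that leave out 1 library for 202 of the 523 genes.

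**Figure D1:**
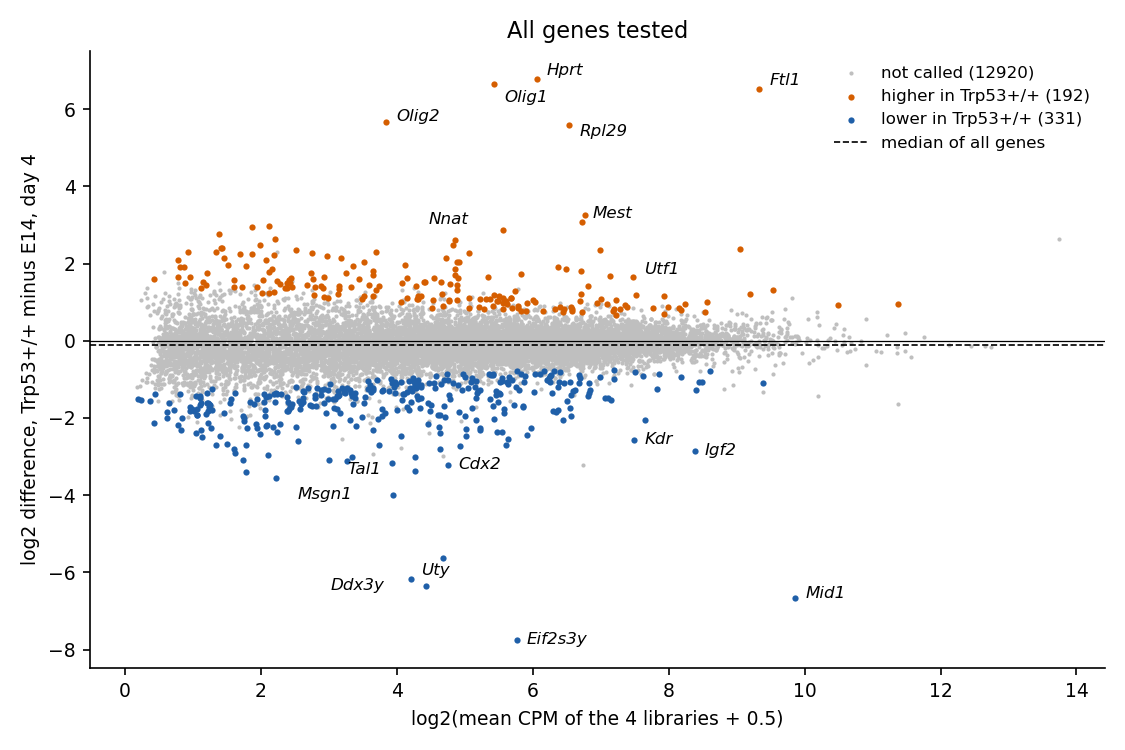
Log2 difference between the lines (Trp53+/+ minus E14, day 4) against the log2 mean CPM of the 4 libraries, 1 point per tested gene. Of 13443 genes, 192 were called higher (orange) and 331 lower (blue), and the dashed line marks the median of all genes at -0.10.

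Some of the largest differences lay in Hprt, Y-linked genes and Mid1. Hprt, the purine salvage enzyme, was at 0.767 and 0.619 CPM in E14 and at 125 and 138 CPM in Trp53+/+, a ratio of 190 (log2 difference 6.79 ± 0.21, SE, limma adjusted p = 1.99e-05). It was as low at every day of E14, between 0.249 and 0.810 CPM over 10 libraries, and high in the p53 family loss libraries, at 106 and 112 CPM. Hprt passed the filter on low values through the Trp53+/+ libraries alone, so the filter set its direction. E14Tg2a was derived as an Hprt-deficient line, with a deletion that takes in the promoter shown above, so the reads match the line's label.

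Y-linked genes ran the other way. Eif2s3y, a translation initiation factor subunit, was at 118 and 96.6 CPM in E14 and had no read in either Trp53+/+ library, which is at least 811-fold lower against a floor of 3 reads per library (limma adjusted p = 1.99e-05). Uty, a histone demethylase relative, was at 41.7 and 30.3 CPM in E14 and also had no read in Trp53+/+, at least 272-fold lower (limma adjusted p = 8.41e-05). Ddx3y, an RNA helicase, was at 42.6 and 41.6 CPM in E14 and had 1 read in all in Trp53+/+, against 2643 reads in E14. Of 9 Y-linked genes listed, 4 passed the filter on low values and were called lower, Ube1y1 being the fourth, with 1.70 and 1.67 CPM in E14 and no read in Trp53+/+. All 4 passed through the E14 libraries alone, so the filter set their direction. Kdm5d was not tested, with 9 reads in E14 and 1 in Trp53+/+. In the p53 family loss libraries, which share background and medium with Trp53+/+, Y-linked reads were present: Eif2s3y was at 32.7 and 18.1 CPM, Uty at 20.1 and 17.3 CPM, and Kdm5d had 292 and 111 reads. Reads of Eif2s3y and Uty were thus found in all 12 other RNA-seq libraries and in neither Trp53+/+ library. Such floors and intervals speak of counting error alone.

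On the X chromosome, Xist, the RNA that coats an inactive X, was at 1.85 and 1.09 CPM in E14 and at 6.85 and 6.12 CPM in Trp53+/+ (log2 difference 1.85 ± 0.29, limma adjusted p = 0.0242). The E14 libraries of day 3 held 4.99 and 3.83 CPM, and the highest of all 10 E14 libraries 11.2 CPM, above both Trp53+/+ libraries. Mid1, a microtubule-bound ubiquitin ligase whose gene spans the boundary of the pseudoautosomal region, was at 1827 and 1868 CPM in E14 and at 20.1 and 15.5 CPM in Trp53+/+, a ratio of 104 (log2 difference -6.67 ± 0.17, limma adjusted p = 1.38e-05). The p53 family loss libraries lay between, at 389 and 276 CPM. G530011O06Rik, which lies within Mid1 in RefSeq, was lower with it (58.0 and 41.8 CPM against 0.612 and 0.419 CPM), and since no source used here states that strand was counted, reads of overlapping genes cannot be told apart. Nnt, the mitochondrial transhydrogenase of which C57BL/6J mice are known to carry a deleted copy, was at 51.5 and 56.3 CPM in E14 and at 56.1 and 64.6 CPM in Trp53+/+, and the lines overlapped (limma adjusted p = 0.608).

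**Figure D2:**
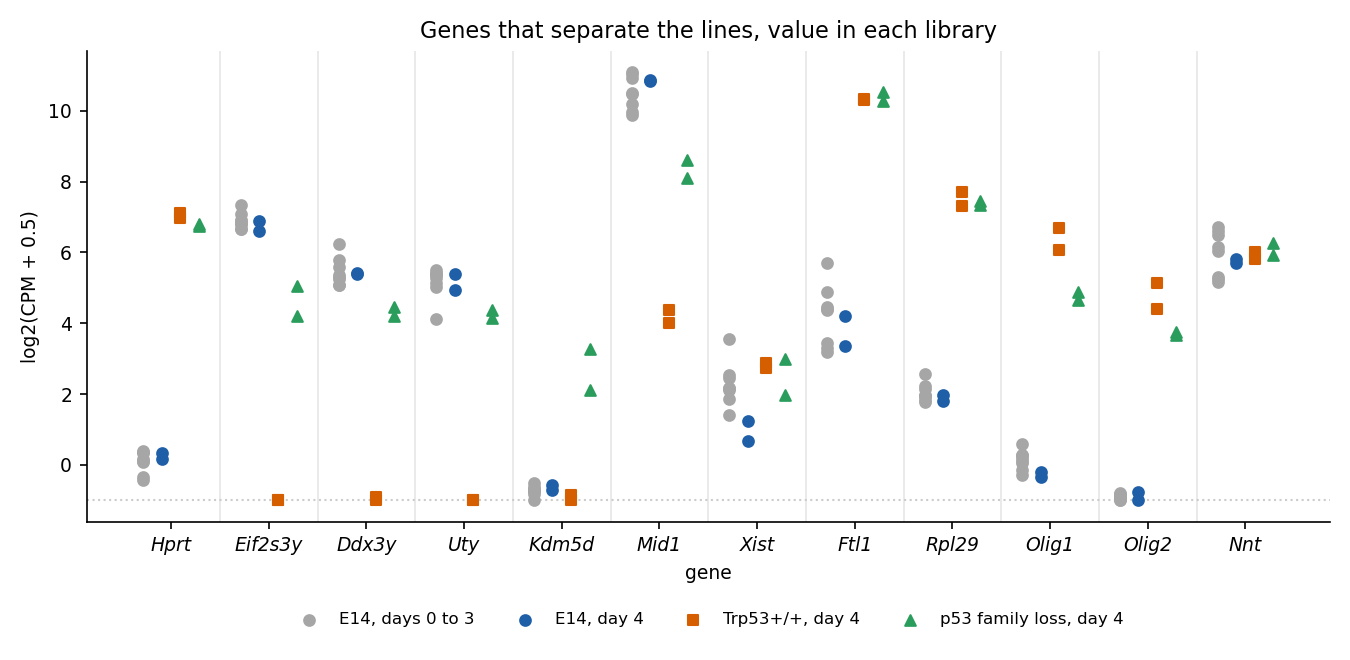
Level of 12 genes in each of 14 libraries, as log2(CPM + 0.5), with 1 point per library and groups by colour and shape; the dotted line marks no reads. Hprt, Ftl1, Rpl29, Olig1 and Olig2 are high in the Trp53+/+ and p53 family loss libraries and low in all 10 E14 libraries, and Eif2s3y and Uty lie at the dotted line, and Ddx3y at it or just above it, in Trp53+/+ alone.

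Ferritin, ribosomal protein and other housekeeping genes also differed. Ftl1, the ferritin light chain, was at 17.8 and 9.83 CPM in E14 and at 1264 and 1276 CPM in Trp53+/+ (log2 difference 6.53 ± 0.26, limma adjusted p = 5.86e-05). The ribosomal protein gene Rpl29 was at 3.01 and 3.42 CPM against 157 and 206 CPM (5.61 ± 0.21, limma adjusted p = 4.59e-05). Rps3a (3.26), Ahcy (2.48), Hspa8 (2.37), Rpl3 (2.35) and Hmgn2 (2.28) also differed, each called, the numbers being log2 differences. RefSeq names 2 pseudogenes after Ftl1, 5 after Rpl29, 2 after Rpl3 and 1 after Hmgn2, and none after Rps3a, Ahcy or Hspa8. Copies under other names were not searched for, so such copies are not excluded for any of these genes. Reads that fit several copies can be split or dropped by the counting, so the values of all these genes are uncertain as levels of the genes. The p53 family loss libraries gave values near those of Trp53+/+ for Ftl1 (1229 and 1475 CPM) and Rpl29 (161 and 173 CPM). Rpl29, Rpl3, Rps3a and Rps4y2 were the only genes with a symbol of the Rpl or Rps kind called higher.

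Several genes of lateral plate and extraembryonic mesoderm were lower in Trp53+/+. Of 22 listed genes 20 were tested, 7 were called lower and none higher (15 and none at an unadjusted p under 0.05, 7 and none by edgeR), and the median log2 difference was -1.82, against -0.10 for all genes. Over all genes tested, 2.46% were called lower and 1.43% higher, and 2896 of 13443 had an unadjusted p under 0.05. The summed level of the list was 967 and 1525 CPM in E14 and 578 and 273 CPM in Trp53+/+. In bulk RNA, fewer cells of a type and less RNA per cell cannot be told apart. Msx2, a homeobox target of BMP signals, was at 67.5 and 137 CPM in E14 and at 22.5 and 13.2 CPM in Trp53+/+ (log2 difference -2.44 ± 0.37, limma adjusted p = 0.0233). Bmp4, the BMP ligand of the posterior streak, was at 38.9 and 85.6 CPM against 15.2 and 8.27 CPM (-2.31 ± 0.41, limma adjusted p = 0.0327). Wnt5a, a ligand of non-canonical Wnt signalling, was at 65.1 and 89.3 CPM against 21.1 and 9.95 CPM (-2.35 ± 0.34, limma adjusted p = 0.021). Pdgfra, a receptor of early mesoderm, was at 129 and 124 CPM against 49.5 and 26.5 CPM (-1.79 ± 0.28, limma adjusted p = 0.0242). Each of these was lower in both Trp53+/+ libraries than in either E14 library. They were named because they were called, and for 54.9% of all genes tested the lines did not overlap. In each of these genes the second Trp53+/+ library was the lower. Tbx3, Gata4 and Msx1 completed the 7, and the call of Msx1 was lost without E14 replicate 2 (limma adjusted p = 0.0664). Hand1, a transcription factor of extraembryonic and heart mesoderm, did not pass, since its libraries lay far apart within each line, at 73.9 and 310 CPM in E14 and 32.5 and 7.64 CPM in Trp53+/+ (-3.21 ± 0.78, limma adjusted p = 0.0686).

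Blood, vessel and heart genes were called in 1 direction only by limma, lower in Trp53+/+. Among all genes tested 2.46% were lower and 1.43% higher. Of 20 genes of blood and endothelium 14 were tested and 7 were lower, none higher (1 higher at an unadjusted p under 0.05 and by DESeq2), with a median of -1.44 and a summed level of 492 and 508 CPM in E14 against 184 and 111 CPM in Trp53+/+. Tal1, the master regulator of blood formation, was at 33.6 and 35.5 CPM in E14 and at 3.89 and 2.15 CPM in Trp53+/+ (log2 difference -3.36 ± 0.28, limma adjusted p = 0.00299). At day 3 E14 itself stood at 5.80 and 5.52 CPM. Kdr, the VEGF receptor of the earliest blood and vessel precursors, was at 293 and 308 CPM against 88.4 and 28.0 CPM (-2.58 ± 0.46, limma adjusted p = 0.0327). Etv2, which drives the endothelial programme, was at 47.3 and 29.4 CPM against 9.08 and 10.0 CPM (-1.91 ± 0.26, limma adjusted p = 0.0181). Gata2 and Lmo2, partners of Tal1, were lower by log2 differences of -1.86 and -1.71. Fli1 and Sox7 were the other 2, and both calls were lost without E14 replicate 2 (log2 differences -1.61 and -1.61). Sox7, at 2.09 and 0.785 CPM in Trp53+/+, passed the filter only with the E14 libraries, here and in the visceral and parietal endoderm list. Of 16 heart genes 13 were tested, with 3 lower and none higher and a median of -1.36. Isl1, a factor of the second heart field, was at 14.5 and 13.2 CPM against 1.08 and 1.31 CPM (-3.08 ± 0.24, limma adjusted p = 0.00244), and Myl7, an atrial myosin light chain, at 19.7 and 14.2 CPM against 3.49 and 2.98 CPM (-2.21 ± 0.25, limma adjusted p = 0.0106).

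Paraxial mesoderm, the source of somites, had 14 of 17 genes tested, with 4 lower (Msgn1, Tbx6, Rspo3 and Dll3), none higher and a median of -0.98. Lower calls made up 2.46% of all genes tested. Msgn1 reached 1 CPM in only 1 Trp53+/+ library, so it passed the filter only with the E14 libraries. The same holds where Msgn1 is counted among the streak genes below. Msgn1, which commits cells to presomitic mesoderm and whose promoter is shown above, was at 27.0 and 29.9 CPM in E14 and at 1.95 and 0.837 CPM in Trp53+/+, a ratio of 20.4 (SE of the log2 difference 0.32, limma adjusted p = 0.00258). E14 at day 3 held 0.0648 and 0.0995 CPM, so Trp53+/+ at day 4 lay above E14 at day 3 and below E14 at day 4. Tbx6, its upstream T-box factor, was at 26.8 and 21.7 CPM against 9.01 and 4.76 CPM (-1.80 ± 0.31, limma adjusted p = 0.0327). Rspo3, a secreted amplifier of Wnt signals, was at 80.4 and 94.7 CPM against 28.9 and 25 CPM (-1.68 ± 0.17, limma adjusted p = 0.00773). Dll3, a Notch ligand of presomitic mesoderm, lost its call without either E14 library (limma adjusted p = 0.133 and 0.0524).

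Hox genes mark position along the body axis and are switched on in order by the Cdx factors. Of 30 listed genes only 9 passed the filter, which a gene can pass through E14 alone. Of them 8 were lower, against 2.46% of all genes tested. Hoxb1, among the first Hox genes on in the posterior streak, was at 30.5 and 36.8 CPM in E14 and at 3.06 and 4.55 CPM in Trp53+/+ (log2 difference -3.00 ± 0.25, limma adjusted p = 0.00299). Hoxb2 and Hoxb3, its neighbours in the cluster, were lower by log2 differences of -3.01 and -3.12. Cdx2, a homeobox activator of Hox genes that also marks trophoblast, was at 33.6 and 62.9 CPM against 3.67 and 5.50 CPM, a ratio of 10.5 (-3.22 ± 0.33, limma adjusted p = 0.00774). Its relative Cdx1 was tested and not called, at 3.41 and 4.95 CPM against 2.52 and 4.71 CPM. The whole list summed to 110 and 201 CPM in E14 and to 17.8 and 21.0 CPM in Trp53+/+. The call of Hoxa3 was lost without E14 replicate 2 (limma adjusted p = 0.077), and that of Hoxd9 with a pseudocount of 2 (limma adjusted p = 0.0632).

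**Figure D3:**
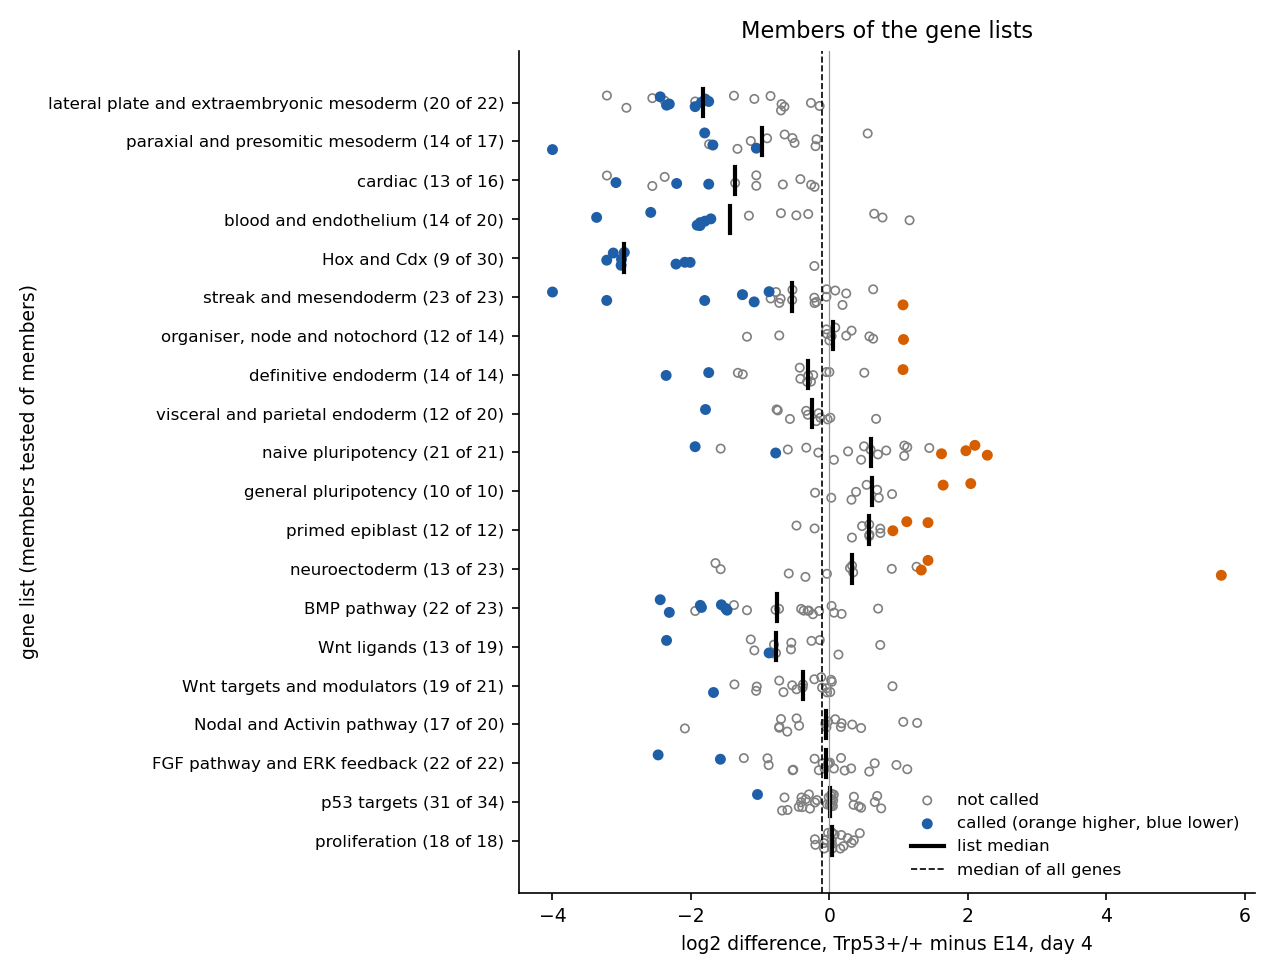
Log2 difference between the lines for each tested member of 20 gene lists, 1 point per gene, filled where called; black bars are list medians and the dashed line is the median of all genes. Called members of the mesoderm, blood, heart and Hox lists lie to the left (lower in Trp53+/+), those of the general pluripotency and primed epiblast lists to the right, and no member of the proliferation or Nodal lists was called.

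For the streak itself the picture was mixed, against 2.46% lower and 1.43% higher over all genes tested. All 23 streak and mesendoderm genes were tested, with 6 lower (Msgn1, Cdx2, Tbx6, Cyp26a1, Evx1 and Wnt3) and 1 higher (Foxa2), a median of -0.54, and a summed level of 3421 and 3208 CPM in E14 against 2636 and 2574 CPM in Trp53+/+. T, the streak and notochord factor, was at 739 and 551 CPM against 427 and 359 CPM and did not pass (log2 difference -0.70 ± 0.19, limma adjusted p = 0.095). Eomes, which patterns anterior streak and endoderm, was at 525 and 483 CPM against 499 and 661 CPM, and the lines overlapped (limma adjusted p = 0.589). Mixl1, a homeobox factor of the streak, was at 210 and 223 CPM against 173 and 209 CPM (limma adjusted p = 0.533). Mesp1, which marks mesoderm leaving the streak, was at 111 and 82.2 CPM against 30.3 and 52.6 CPM (-1.25 ± 0.28, limma adjusted p = 0.0568). None of these 4 was called by limma, whereas DESeq2 called T and Mesp1 lower (adjusted p = 0.0337 and 0.00188). Among the called, Cyp26a1, an enzyme that clears retinoic acid, was at 361 and 281 CPM against 134 and 132 CPM (-1.26 ± 0.17, limma adjusted p = 0.0174), and Evx1, a posterior streak factor, at 147 and 161 CPM against 78.3 and 66.5 CPM (-1.09 ± 0.16, limma adjusted p = 0.021). Wnt3, the ligand that starts the streak, was at 87.1 and 90.6 CPM against 45.9 and 50.9 CPM (-0.87 ± 0.15, limma adjusted p = 0.0327). Calls were lost for Cyp26a1 without E14 replicate 1 (limma adjusted p = 0.0571), for Evx1 without E14 replicate 2 (0.0836) and for Wnt3 without either (0.181 and 0.208).

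Organiser and endoderm genes were called in both directions, against 1.43% higher and 2.46% lower over all genes tested. Foxa2, a factor of node, notochord and endoderm, was at 38.8 and 43.4 CPM in E14 and at 96.3 and 77.2 CPM in Trp53+/+ (log2 difference 1.06 ± 0.18, limma adjusted p = 0.0299), and the call was lost without either E14 library (limma adjusted p = 0.118 and 0.0511). Gsc, the organiser homeobox gene, was at 43.8 and 38.1 CPM against 61.7 and 65.6 CPM and did not pass (0.63 ± 0.16, limma adjusted p = 0.0813). Of 14 organiser genes 12 were tested, 1 was called (Foxa2) and the median was 0.06. All 14 genes of definitive endoderm were tested, 1 higher (Foxa2) and 2 lower (Gata4 and Spink3), with a median of -0.31. Spink3, at 1.66 and 0.576 CPM in Trp53+/+, passed the filter only with the E14 libraries. Sox17, the endoderm factor, was at 41.9 and 45.1 CPM in E14 and at 60.1 and 22.6 CPM in Trp53+/+, on either side of E14 (limma adjusted p = 0.776). Among 20 genes of visceral and parietal endoderm 12 were tested and only Sox7 was called, lower.

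Signalling genes are given by pathway, against 2.46% lower and 1.43% higher over all genes tested. Of 23 BMP genes 22 were tested, 7 lower and none higher (1 higher at an unadjusted p under 0.05, none by edgeR), with a median of -0.75. Id1, the direct target of BMP-activated SMADs, was at 145 and 125 CPM in E14 and at 38.3 and 53.6 CPM in Trp53+/+ (log2 difference -1.56 ± 0.20, limma adjusted p = 0.0157). Bmp4, Msx1, Msx2, Gata2, the inhibitory SMAD Smad6 and the pseudoreceptor Bambi were the others. The calls of Smad6 and Bambi, like that of Msx1, were lost without E14 replicate 2 (limma adjusted p = 0.101 and 0.108). Of 19 Wnt ligands 13 were tested, with Wnt3 and Wnt5a lower and a median of -0.77, and of 21 Wnt targets and modulators 19, with Rspo3 lower and a median of -0.38. Tcf7l1, a TCF that mostly represses Wnt targets in ES cells, was higher in Trp53+/+, at 221 and 208 CPM against 63.2 and 70.5 CPM in E14 (1.68 ± 0.15, limma adjusted p = 0.00396). Its level in E14 at day 3 was 64.0 and 65.3 CPM, and in p53 family loss 244 and 239 CPM.

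The Nodal and Activin pathway had no called gene among 17 tested of 20, by limma, and a median of -0.04. At an unadjusted p under 0.05, 2 of them were higher and 6 lower, and edgeR called 2 higher. Of all genes tested limma called 3.89%, and 2896 of 13443 had an unadjusted p under 0.05. Nodal, the ligand, was at 57.4 and 78.1 CPM against 69.5 and 72.5 CPM (limma adjusted p = 0.838), and Lefty2, its antagonist and target, at 99.7 and 102 CPM against 84.6 and 43.7 CPM (limma adjusted p = 0.205). All 22 genes of FGF signalling and ERK feedback were tested, with Fgf3 and Fgf10 lower and a median of -0.04. Fgf3, a ligand of the posterior streak, was at 43.6 and 65.8 CPM against 9.94 and 8.58 CPM (log2 difference -2.47 ± 0.24, limma adjusted p = 0.00631). The Notch list had 13 of 16 tested, with Dll3 and Hey1 lower, and the retinoic acid list 13 of 14, with Cyp26a1 and Crabp1 lower. The call of Hey1 was lost without E14 replicate 1 (log2 difference -0.92). Crabp1, a carrier of retinoic acid, was at 24.9 and 30.8 CPM against 5.58 and 3.77 CPM (-2.47 ± 0.26, limma adjusted p = 0.00773). Of 14 Hedgehog genes 10 were tested, and only the co-receptor Boc was called, lower, a call lost without either E14 library (limma adjusted p = 0.136 and 0.192).

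Pluripotency genes were called higher more than lower, against 1.43% higher and 2.46% lower over all genes tested. All 10 genes of general pluripotency were tested, 2 were higher in Trp53+/+, none lower (5 and none at an unadjusted p under 0.05, 3 and none by edgeR), and the median was 0.61. Utf1, a chromatin protein of pluripotent cells, was at 80.3 and 92.6 CPM in E14 and at 264 and 276 CPM in Trp53+/+ (log2 difference 1.64 ± 0.15, limma adjusted p = 0.00451). Foxd3, which supports pluripotent and neural crest cells, was at 9.66 and 12.4 CPM against 42.1 and 51.7 CPM (2.04 ± 0.21, limma adjusted p = 0.00783). In E14 at day 3 they stood at 217 and 239 CPM and at 45.3 and 43.8 CPM, close to Trp53+/+ at day 4. The core factors did not pass. Pou5f1 was at 663 and 506 CPM against 635 and 1113 CPM, Sox2 at 76.1 and 119 CPM against 197 and 162 CPM, and Nanog at 15.7 and 14.8 CPM against 22.6 and 27.4 CPM (limma adjusted p = 0.317, 0.0801 and 0.107).

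Among 21 naive genes, all tested, 4 were higher (Esrrb, Nr0b1, Tcl1 and Dppa3) and 2 lower (Tbx3 and Stat3), with a median of 0.59. Over all genes tested 1.43% were higher and 2.46% lower. Tcl1, at 0.653 and 0.655 CPM in E14, passed the filter through the Trp53+/+ libraries alone, so the filter set its direction. Esrrb, an orphan receptor that sustains the naive state, was at 11.1 and 17.4 CPM in E14 and at 53.4 and 35.9 CPM in Trp53+/+ (log2 difference 1.62 ± 0.28, limma adjusted p = 0.0327). Nr0b1, a nuclear receptor corepressor, was at 1.05 and 1.09 CPM against 7.64 and 5.08 CPM (2.10 ± 0.29, limma adjusted p = 0.0181). Dppa3, which protects maternal methylation marks, was at 1.45 and 2.18 CPM against 11.9 and 9.42 CPM (2.28 ± 0.28, limma adjusted p = 0.0133), and fell out of the calls when all 14 libraries were fitted together (limma adjusted p = 0.0981). Zfp42, or Rex1, the usual naive reporter gene, was at 12.8 and 17.1 CPM against 29.2 and 20.3 CPM and did not pass (limma adjusted p = 0.171). Stat3, which carries the LIF signal, was lower at 41.1 and 38.5 CPM against 70.2 and 66.9 CPM, with a limma adjusted p of 0.0456. That call was lost without E14 replicate 1 (limma adjusted p = 0.385), without E14 replicate 2 (0.253), with all 14 libraries (0.186), with TMM scaling (0.0512), with median-of-ratios scaling (0.0536) and with a filter at a mean of at least 5 CPM (0.0505). The list median on the log2(CPM + 0.5) scale was over 7 at day 0 and under 5 in both lines at day 4, as the plot of list medians by day shows.

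The primed epiblast list, 12 of 12 tested, had 3 higher and none lower (9 and 1 at an unadjusted p under 0.05, 5 and none by edgeR) and a median of 0.58. Higher calls made up 1.43% of all genes tested and lower calls 2.46%. Pou3f1, a POU factor of epiblast and early neural cells, was at 45.9 and 77.3 CPM in E14 and at 144 and 179 CPM in Trp53+/+ (log2 difference 1.42 ± 0.25, limma adjusted p = 0.0339). The de novo DNA methyltransferase Dnmt3b was at 1056 and 931 CPM against 1685 and 2079 CPM (0.92 ± 0.19, limma adjusted p = 0.0468), and its cofactor Dnmt3l at 33.4 and 30.1 CPM against 72.6 and 66.3 CPM (1.12 ± 0.16, limma adjusted p = 0.021). Dnmt3a was not called (0.33 ± 0.14, limma adjusted p = 0.237). At day 3 E14 itself held 2376 and 1834 CPM of Dnmt3b. Each of the 3 calls was lost without 1 E14 library, Pou3f1 without replicate 1 (limma adjusted p = 0.0708), Dnmt3l without replicate 2 (0.0864) and Dnmt3b without either (0.22 and 0.364).

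**Figure D4:**
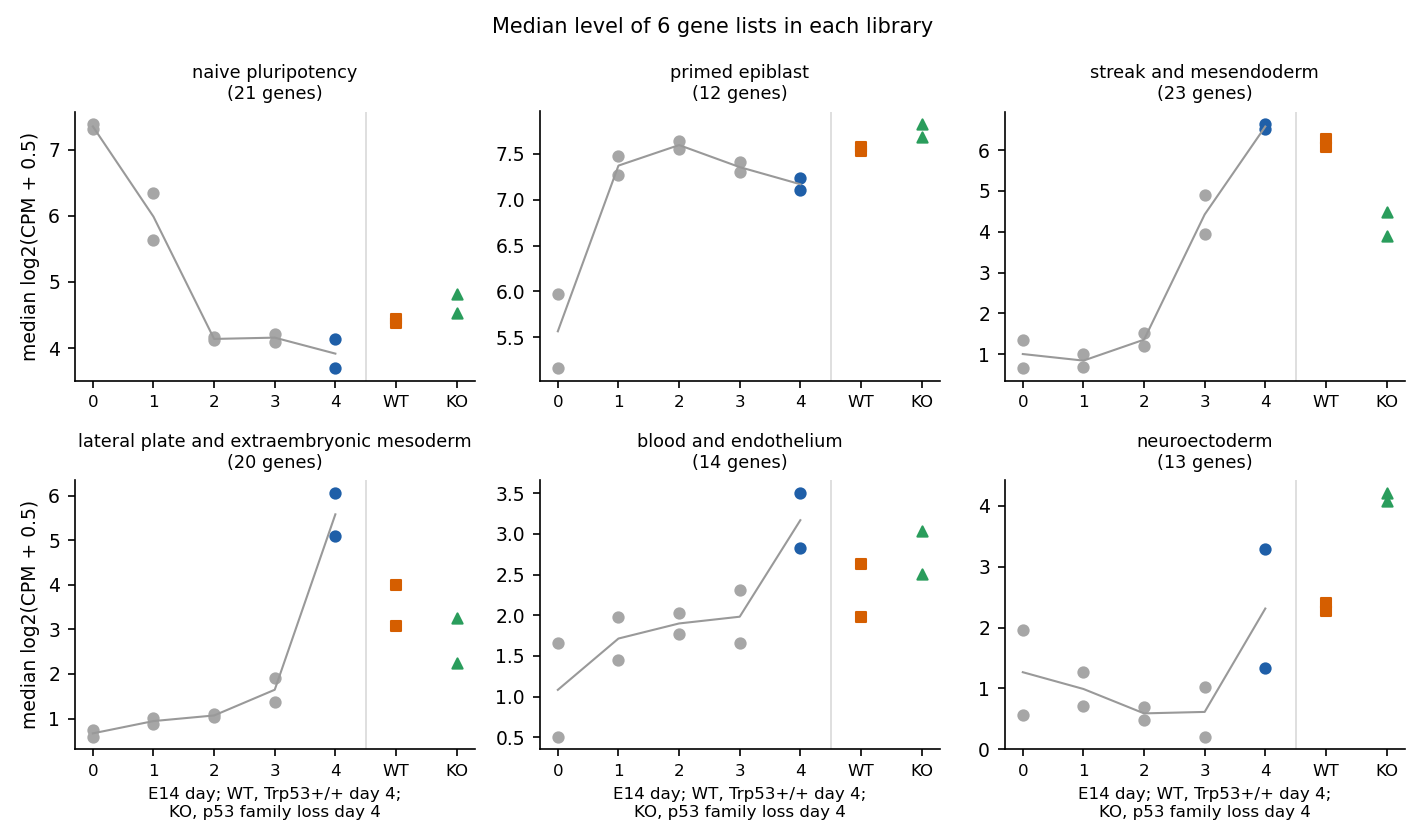
Median log2(CPM + 0.5) of 6 gene lists in each library, with E14 at days 0 to 4 joined through the mean of the 2 libraries, then Trp53+/+ (WT, squares) and p53 family loss (KO, triangles), both at day 4; vertical scales differ between panels. For the mesoderm and blood lists the Trp53+/+ libraries lie below E14 at day 4, for lateral mesoderm above E14 at day 3, and for the naive and primed lists they lie above E14 at day 4.

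Among neural genes, Olig1 and Olig2 were nearly silent in E14. Of 23 neuroectoderm genes 13 were tested, with 3 higher (Olig2, Sox3 and Pou3f1), none lower (5 and 2 at an unadjusted p under 0.05) and a median of 0.33. Over all genes tested 1.43% were higher and 2.46% lower. Olig1 and Olig2 passed the filter through the Trp53+/+ libraries alone, so the filter set their direction. Olig2, a transcription factor of motor neuron and oligodendrocyte precursors, had 3 reads in E14, all in replicate 1, and stood at 34.7 and 20.7 CPM in Trp53+/+ (ratio of pooled reads 606, 95% counting interval 207 to 2942, limma adjusted p = 0.000369). Its neighbour and paralog Olig1 was at 0.369 and 0.291 CPM in E14 and at 103 and 66.9 CPM in Trp53+/+, a ratio of 257 (log2 difference 6.65 ± 0.27, limma adjusted p = 6.39e-05). In E14, Olig2 had at most 3 reads in any of 10 libraries from day 0 to day 4, while the p53 family loss libraries held it at 12.9 and 12.2 CPM. Sox1, the first marker of neural commitment, was at 0.966 and 10.6 CPM in E14, its libraries farther apart than the lines, and at 4.32 and 4.92 CPM in Trp53+/+ (limma adjusted p = 0.847). It stood at 124 and 104 CPM in p53 family loss. Sox3 was at 13.2 and 20.1 CPM against 38.2 and 45.3 CPM, and its call was lost without E14 replicate 1 (limma adjusted p = 0.129).

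No gene of the p53 family was called among 4 tested of 5 by limma, with 1 higher at an unadjusted p under 0.05, 1 by DESeq2 and none by edgeR. Trp53 was at 278 and 322 CPM in E14 and at 346 and 465 CPM in Trp53+/+ (log2 difference 0.42 ± 0.19, limma adjusted p = 0.251), against 37.1 and 32.3 CPM in p53 family loss. Trp73 was at 5.54 and 5.90 CPM against 9.08 and 11.7 CPM (0.80 ± 0.24, limma adjusted p = 0.113), and Trp63 stayed under 0.3 CPM in all 4 libraries and was not tested. Of 34 known p53 targets 31 were tested and 1 was called, Tap1, a peptide transporter of antigen presentation, with a median of 0.00 against -0.10 for all genes. Calls by limma in either direction made up 3.89% of all genes tested. At an unadjusted p under 0.05, 3 targets were higher and 5 lower, and over all genes 2896 of 13443 reached it. Both edgeR and DESeq2 called 1 target higher and 1 lower. Pmaip1 was at 108 and 114 CPM in E14 and at 190 and 169 CPM in Trp53+/+ (0.69 ± 0.15, limma adjusted p = 0.052, edgeR adjusted p = 0.0314). Cdkn1a, the cell cycle inhibitor p21, was at 73.9 and 103 CPM in E14 and at 86.9 and 91.7 CPM in Trp53+/+ (0.03 ± 0.19, limma adjusted p = 0.939). Mdm2, the ubiquitin ligase that restrains p53, was at 99.5 and 118 CPM against 126 and 93.6 CPM (0.00 ± 0.19, limma adjusted p = 0.996). For both genes the libraries of the 2 lines overlapped, and the p53 family loss libraries held Cdkn1a at 8.68 and 5.12 CPM. Tap1 was at 24.6 and 23.1 CPM against 12.9 and 9.95 CPM, and lost its call without either E14 library (limma adjusted p = 0.248 and 0.152).

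Imprinted genes, expressed from 1 parental copy, differed in both directions, against 1.43% higher and 2.46% lower over all genes tested. Of 23 paternally expressed genes 21 were tested, 5 higher in Trp53+/+ (Mest, Nnat, Plagl1, Kcnq1ot1 and Nespas) and 2 lower (Igf2 and Slc38a4), with a median of -0.21. The calls of Nespas and Slc38a4 were lost without E14 replicate 2 (limma adjusted p = 0.115 and 0.109). Mest, a hydrolase known from mesoderm, was at 17.3 and 25.6 CPM in E14 and at 243 and 135 CPM in Trp53+/+ (log2 difference 3.08 ± 0.31, limma adjusted p = 0.00683). Nnat, a small membrane protein of neural tissue, was at 11.2 and 10.5 CPM against 73.4 and 92.3 CPM (2.87 ± 0.19, limma adjusted p = 0.00114). Plagl1, a zinc finger regulator of other imprinted genes, was at 0.710 and 0.764 CPM against 9.58 and 5.39 CPM (2.64 ± 0.32, limma adjusted p = 0.0136). It passed the filter through the Trp53+/+ libraries alone, so the filter set its direction. Igf2, the fetal growth factor, was at 324 and 846 CPM against 117 and 44.1 CPM (-2.86 ± 0.54, limma adjusted p = 0.0379). H19, its maternally expressed neighbour, was at 26.4 and 33.3 CPM against 101 and 56.4 CPM and did not pass (1.33 ± 0.28, limma adjusted p = 0.0508), but did with TMM scaling (0.0291). Of 19 maternally expressed genes 18 were tested, with Dcn higher and Phlda2 and Zim1 lower. Dcn, at 0.369 and 0.328 CPM in E14, also passed the filter through the Trp53+/+ libraries alone. Zim1 was at 7.64 and 7.5 CPM against 2.85 and 1.05 CPM, and edgeR did not call it (adjusted p = 0.05). Phlda2, which limits placental growth, was at 144 and 183 CPM against 70.4 and 51.0 CPM (-1.43 ± 0.21, limma adjusted p = 0.021). Meg3, often silenced in cultured ES cells, was at 525 and 513 CPM against 496 and 422 CPM (limma adjusted p = 0.545).

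Genes of the Zscan4 state, which a small share of ES cells enters and which resembles the early cleavage embryo, were low in Trp53+/+. Of 11 listed 4 passed the filter and 3 were lower (Zscan4d, Zscan4c and Usp17l5). These 3 passed through the E14 libraries alone, so the filter set their direction and nothing is read from the count. Zscan4d, which acts at telomeres in these cells, was at 4.4 and 12 CPM in E14 and at 0.288 and 0.0523 CPM in Trp53+/+ (log2 difference -3.57 ± 0.46, limma adjusted p = 0.0157), and its near-identical copy Zscan4c at 2.70 and 6.99 CPM against 0.396 and 0.0523 CPM. Reads of the 2 copies may be split between them, so their values are uncertain. The p53 family loss libraries held 4.02 and 2.39 CPM of Zscan4d. Of 13 germ cell genes 11 were tested, with Dppa3 higher and Sycp3 lower, against 1.43% and 2.46% of all genes tested. Sycp3, a protein of the meiotic chromosome axis, was at 44.7 and 26.1 CPM against 9.19 and 5.86 CPM (-2.14 ± 0.32, limma adjusted p = 0.0225).

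Lists of general cell state differed in their calls, which over all genes tested made up 1.43% higher and 2.46% lower. No gene was called among 18 proliferation genes (median 0.04), 20 tested genes of extracellular matrix (median -0.56) or 15 immediate early and stress genes (median -0.03), by limma. At an unadjusted p under 0.05 there were 1, 8 and 2, and edgeR called none in any of the 3 lists. Fn1, the fibronectin of migrating mesoderm, was at 4137 and 3673 CPM in E14 and at 2086 and 747 CPM in Trp53+/+ and did not pass (log2 difference -1.64 ± 0.43, limma adjusted p = 0.0838). Of 18 hypoxia and glycolysis genes tested, the oxidoreductase Ero1l was lower, at 74.4 and 67.6 CPM against 251 and 171 CPM (-1.54 ± 0.20, limma adjusted p = 0.0172), and the median was -0.64. Antigen presentation and interferon genes had 5 lower of 18 tested, among them Psmb8, Ifitm1, Psmb9 and Tap1, and a median of -0.82. Psmb8, a subunit of the immunoproteasome, was at 35.4 and 32.4 CPM against 12.4 and 8.64 CPM (-1.66 ± 0.23, limma adjusted p = 0.019), and Ifitm1, an interferon-induced membrane protein, at 172 and 154 CPM against 59.9 and 67.3 CPM (-1.35 ± 0.15, limma adjusted p = 0.0106). The call of Psmb9 was lost without either E14 library (limma adjusted p = 0.22 and 0.0712). Among 17 cadherin and epithelial-mesenchymal transition genes tested, Epcam was higher and Cdh11 lower. The call of Epcam was lost without either E14 library (log2 difference 0.95 without replicate 1 and 0.81 without replicate 2). That of Cdh11 was lost without E14 replicate 2 (-0.95).

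A pair of further genes outside the lists stood out, chosen after their values were seen. Polg, the mitochondrial DNA polymerase, was at 314 and 334 CPM in E14 and at 84.2 and 71.2 CPM in Trp53+/+ (log2 difference -2.06 ± 0.15, limma adjusted p = 0.002). The E14 level was alike at day 3 (314 and 443 CPM) and the p53 family loss libraries held 74.6 and 69.1 CPM. Slc1a5, a glutamine transporter, was at 40.8 and 36.5 CPM against 140 and 142 CPM (1.86 ± 0.15, limma adjusted p = 0.00277). Of the 12 largest differences on each side, Spon1, a secreted adhesion protein, was higher at 50.2 and 48.6 CPM against 6.67 and 8.84 CPM, and Grin2c, a subunit of the NMDA receptor, lower at 4.18 and 1.47 CPM against 25.6 and 27.6 CPM.

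Set against the time course as a description, over 182 tested genes of the cell state and cell type lists, Spearman's correlation of Trp53+/+ replicate 1 with the mean of each E14 day went from 0.508 at day 0 to 0.835 at day 3 and 0.875 at day 4. For replicate 2 it was 0.511, 0.854 and 0.856. Over all 13443 genes replicate 1 reached 0.963 at day 3 and 0.974 at day 4, and replicate 2 reached 0.965 and 0.966. These values are across genes, which share libraries and lists and are not independent.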

How the data were processed

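RNA was sequenced from EBs at day 4. The submitters' processing notes list HTSeq 0.5.4, Bowtie2, DESeq2, SAMtools 0.1.19, FastQC 0.11.3 and the build mm9, with no role or order. The deposited values are a signal, reads divided by 1 factor per library: 100% were whole multiples of its step within 1e-06, which gave whole reads. Each column was brought to CPM of its own total. Genes with at least 1 CPM in at least 2 of the 4 libraries (13443 of 23284) were tested with limma 3.58.1 in R 4.3.3 (trend, 2 residual and 5.205 prior degrees of freedom), two-sided, on log2(CPM + 0.5), which understates changes of low genes. On simulated data 52.3% of changes by 2-fold were recovered, 98.5% by 4-fold and all by 8-fold, of 65, 67 and 65 genes changed. In the same run 13 unchanged genes were called. edgeR 4.0.16 and DESeq2 1.42.0 on recovered reads called 653 and 1202 genes.

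Named are the 12 largest rises and falls (called, no overlap, at least 10 CPM), up to 4 members of each of 42 gene lists with the smallest p, and a set of key genes. Others were chosen after their values were seen (Kdr, Igf2, Polg, Slc1a5, Tcf7l1, G530011O06Rik, Hmgn2 and list members named only as called or as markers). Members and lists were chosen with earlier results of these data known, and Slc38a4 was moved to the paternally expressed list after its values were seen. Alternatives were scaling, tool, pseudocount, filter, all 14 libraries, a replicate block and each library left out. Leaving Rn45s out of the totals was added after seeing the data. The 16 ChIP-seq and input samples were not used here.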

Additional observations from a re-analysis of the deposited data

How the results depend on the processing

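The main counts were 192 higher and 331 lower (151 and 298 over 2-fold). DESeq2 gave 593 and 609 (285 higher over 2-fold), edgeR 309 higher, TMM scaling 297 higher and size factors 290 higher. With a mean of at least 5 CPM the counts were 112 and 193 (87 and 177 over 2-fold). Without Rn45s in the totals they were 250 and 383. Higher genes made up 46.4% to 49.3% of calls under TMM, size factors, edgeR and DESeq2, against 36.7%, and the median of all genes moved from -0.10 to between -0.01 and 0.00. Leaving out 1 library gave 101 to 1056 higher and 224 to 2654 lower (327 and 1003 the highest over 2-fold). In these fits the lone library is assumed to vary like the other line's pair. The highest counts came without Trp53+/+ replicate 1, and all 523 genes were still called without either Trp53+/+ library, but 270 and 252 without E14 replicate 1 or 2. Replicate numbers are shared by the groups, but deviations from the group means correlated at -0.106, so they did not pair the libraries. With the replicate block there were 396 and 841 calls (241 and 576 over 2-fold). Values that turned sign were all of genes not called. Mdm2 ran from -0.21 (without Trp53+/+ replicate 1) through -0.12 (without E14 replicate 1) to 0.22. Rlim was 0.06 with DESeq2 and edgeR, 0.01 with TMM, 0.02 with size factors, and with 1 library left out it ran from -0.50 to 0.34. In the same way Cdkn1a ran from -0.20 to 0.27. Eomes ran from -0.01 to 0.39, Sox17 from -0.93 to 0.46 and Nodal from -0.14 to 0.30, and Sox17 was 0.01 with edgeR and DESeq2. Sox1 was -0.23 with DESeq2, -0.22 with edgeR and from -1.12 to 1.80 with 1 library left out. Of 86 called named genes, 2 lost the call with TMM, 17 when all 14 libraries were fitted and 15 and 17 without E14 replicate 1 and 2.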

Other observations

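Chromosome 6 stood apart from the others in a summary made after the values were seen. Of its 514 genes with a mean of at least 5 CPM, 31 were called higher in Trp53+/+ (6.03%) and 19 lower (3.70%). On the other chromosomes listed the share higher was at most 2.28%, and the share lower lay between 0.817% and 4.70%, the highest being the X. Over all 10934 genes at that level with a chromosome, 1.32% were higher and 2.20% lower. The median log2 difference of its genes was 0.07. Chromosome 8 was at 0.05, and the rest lay between -0.19 and -0.06. For chromosome 6 both Trp53+/+ libraries were positive against the E14 mean, at 0.11 and 0.05, whereas for chromosome 8 they were at -0.03 and 0.15. In the p53 family loss libraries chromosome 6 was at -0.08 and -0.09. Higher genes of chromosome 6 included Mest, Dppa3 and Tcf7l1, described above, and Phc1, a Polycomb protein (log2 difference 1.30, limma adjusted p = 0.0157), Cxcl12, a chemokine (1.30, 0.0405), Etv6, an ETS repressor (0.88, 0.0327), and Foxp1, a forkhead factor (1.01, 0.0287). Of the genes named, Mest (232 and 182 CPM), Dppa3 (13.2 and 7.79 CPM) and Tcf7l1 (244 and 239 CPM) were also high in the p53 family loss libraries, whose median for the chromosome was below 0.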
